A study of Mus musculus with 26 samples.

Results

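Cultured osteoblasts labelled CON-OLD-iBP (3 RNA libraries) were compared with cultured osteoblasts of old mice labelled OLD (3 RNA libraries), over all 26264 gene symbols of the deposited count table. These 6 libraries were chosen by their titles, out of 18 RNA libraries and 26 libraries in the series. Osteoblasts are the cells that lay down bone matrix, and all of the cells came from mouse femur and were grown in Dulbecco's modified Eagle's medium with 10% fetal bovine serum. CON-OLD-iBP is, by its title, an old control group with iBP, a name that the labels do not expand. The labels give no dose, duration or vehicle for iBP and no age in months for this group. The controls of the knockout line carried Ocn-cre, a recombinase driven by the osteocalcin promoter of mature osteoblasts, and the Ai14 fluorescent reporter, without the floxed Kdm2b gene. OLD came from C57BL/6J mice of 18 months, with no driver, reporter or iBP named. CKO-OLD (3 libraries), which carried Ocn-cre, Ai14 and floxed Kdm2b, lacking the CxxC domain of that gene, and YOUNG (3 libraries), from C57BL/6J mice of 3 months, are given beside the comparison where they bear on it. CON-OLD-iBP and OLD thus differed in iBP and in the Ocn-cre and Ai14 alleles at once, and OLD 1 and OLD 3 also differed from CON-OLD-iBP in sex-linked transcripts and kind of library, so the contributions of each cannot be told apart here. Whether the replicates were separate mice or cultures is not in the labels, and the p-values therefore rest on a spread between libraries that may be technical.

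The title of the series concerns PRC1.1 and Wnt signalling in bone. PRC1.1 is a Polycomb complex in which KDM2B binds unmethylated CpG islands and RING1 enzymes place ubiquitin on histone H2A, a mark found at silent developmental genes. In the canonical Wnt pathway, a ligand bound to a Frizzled receptor and an LRP co-receptor stabilises beta-catenin, which joins TCF and LEF factors at target genes such as Axin2. The pathway promotes osteoblast formation, and secreted antagonists such as sclerostin restrain it.

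Total counts were 46.49 to 55.82 in CON-OLD-iBP and 53.85 to 67.72 in OLD, in units of 1e6. Levels are in CPM (counts per 1e6 counts of the library, with TMM scaling), and 3 values in a row are libraries 1, 2 and 3. The OLD libraries did not form a uniform group. OLD 1 and OLD 3 had a Spearman correlation of 0.995 across genes, with Xist at 481 and 454 CPM, no count of the Y-linked gene Ddx3y and macrophage marker transcripts at 1.28% and 1.27% of counts. OLD 2 had Ddx3y at 36.2 CPM, Xist at 0.0707 CPM and macrophage markers at 0.163%. The nuclear RNA Malat1 took 0.0377% and 0.0368% of counts in OLD 1 and OLD 3, and 0.173% in OLD 2. The 18 libraries fall into 3 sets by this share and their line. A term for library set in the fit is estimated within groups that span sets, such as OLD and YOUNG. All 3 CON-OLD-iBP libraries resembled OLD 2, with Malat1 at 0.126% to 0.223%, Ddx3y at 66.0 to 75.6 CPM and macrophage markers at 0.0572% to 0.113%. The correlation of CON-OLD-iBP 2 with OLD 2 (0.977) was above its correlations with CON-OLD-iBP 1 and 3 (0.967 and 0.963). Each result is therefore given against the 3 OLD libraries, and, where it matters, against OLD 2 alone and against OLD 1 and OLD 3. OLD 2 is a single library, so the contrast with it holds no estimate of its own spread. A gene past that test may be unusual in OLD 2 alone.

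A library of another group also stood apart in a way that touches every result. YOUNG 3, labelled as untreated cells of young mice, correlated with CON-OLD-iBP 1, 2 and 3 at 0.976, 0.970 and 0.958, against 0.929 and 0.934 with YOUNG 1 and YOUNG 2. Its correlations with CKO-OLD 3 (0.966) and OLD 2 (0.962) were above that with CON-OLD-iBP 3, so by this measure the likeness was not limited to CON-OLD-iBP. YOUNG 3 also differed from YOUNG 1 and 2 in kind of library. Xist stood at 0.251 CPM in YOUNG 3, against 432 and 391 CPM in YOUNG 1 and 2. Ddx3y stood at 70.4 CPM, against no count in either. Malat1 took 0.178% of counts, against 0.0386% and 0.0296%. In these traits YOUNG 3 was like OLD 2 and CON-OLD-iBP. Against OLD 2 alone, 130 genes both passed the test and separated all CON-OLD-iBP libraries from all OLD libraries, 46 of them higher and 84 lower. Of the 46 higher genes, 44 had a level in YOUNG 3 above that in every CKO-OLD library, as 30.7% of all genes tested had. Of the 84 lower genes, 82 had a level in YOUNG 3 below every CKO-OLD library, as 27.6% of all genes had. In YOUNG 1 these counts were 23 and 20, and in YOUNG 2 they were 23 and 20. The label of YOUNG 3 names no iBP, and what this library shares with CON-OLD-iBP was not tested. Its levels are given beside the genes below. YOUNG 3 entered the estimate of the spread as a member of its group, and the number of genes past the threshold depended on it. YOUNG 3 also entered the term for library set, which can thus remove part of a difference that it shares with CON-OLD-iBP.

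Over the 16566 genes tested, 4 passed the threshold (edgeR quasi-likelihood test, adjusted p under 0.05), which is 0.0241% of the genes. Of these, 2 were higher (0.0121%), Oga and Dok5, and 2 were lower (0.0121%), among them Cdkn2d. Oga, the enzyme that removes O-linked N-acetylglucosamine from proteins, had 160.0, 159 and 189.6 CPM in CON-OLD-iBP 1, 2 and 3, against 76.8, 71.9 and 75.5 CPM in OLD 1, 2 and 3. All CON-OLD-iBP libraries lay above all OLD libraries, and OLD 2 was close to OLD 1 and OLD 3. Its log2 fold change was 1.18 (SE 0.152, edgeR adjusted p = 0.0214), and YOUNG 3 stood at 126 CPM. Dok5, an adaptor protein of receptor tyrosine kinases, had 73.0, 45.7 and 56.7 CPM in CON-OLD-iBP 1, 2 and 3, against 10.5, 11.5 and 10.7 CPM in OLD 1, 2 and 3. It was several times higher in every CON-OLD-iBP library, with a log2 fold change of 2.42 (SE 0.367, edgeR adjusted p = 0.0459) and 38.1 CPM in YOUNG 3. Dok5 rose most among the genes that passed.

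Cdkn2d, the cyclin-dependent kinase inhibitor p19 INK4d, had 5.27, 7.17 and 7.34 CPM in CON-OLD-iBP 1, 2 and 3, against 25.1, 15.7 and 27.7 CPM in OLD 1, 2 and 3. The groups did not overlap, and OLD 2 lay nearest to CON-OLD-iBP. It fell by 1.79 on the log2 scale (SE 0.278, edgeR adjusted p = 0.0459), and YOUNG 3 stood at 12.1 CPM. Oga, Dok5 and Cdkn2d also differed from OLD 2 alone, by 1.24, 2.35 and -1.25 on the log2 scale (edgeR adjusted p = 0.0158, 0.0158 and 0.0376).

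**Figure D1:**
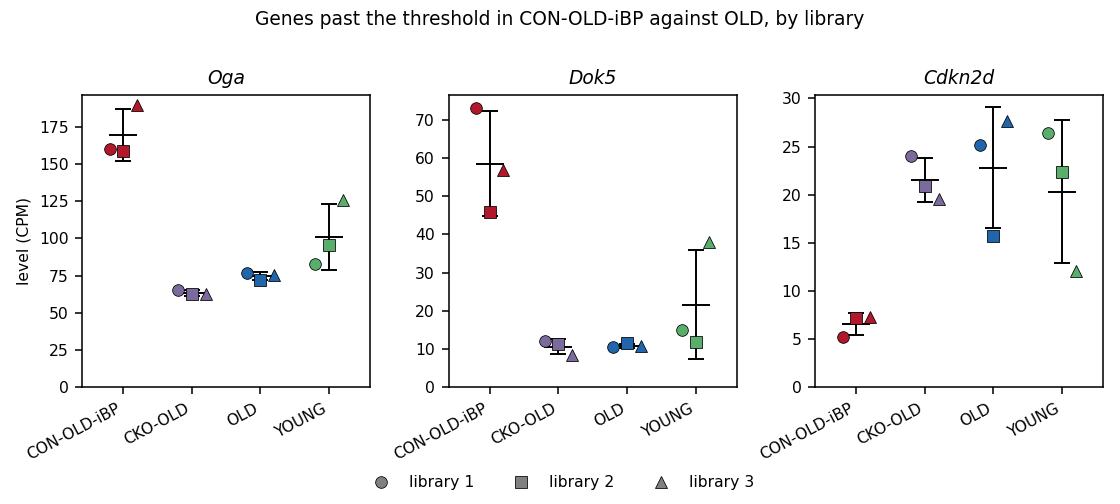
Level in CPM of Oga, Dok5 and Cdkn2d, which passed the threshold, 1 point per library, with the mean and SD of each group (n = 3 libraries) as bars. In CON-OLD-iBP, Oga lay at 159 to 189.6 CPM and Dok5 at 45.7 to 73.0 CPM, above all OLD and CKO-OLD libraries, while Cdkn2d lay below them; YOUNG 3, the triangle of its group, was the YOUNG library nearest to CON-OLD-iBP in all 3 genes.

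The count of 4 sat on a steep edge. Adjusted p lay between 0.05 and 0.06 for 425 further genes, and 1572 had an adjusted p under 0.10. With YOUNG 3 left out of the fit, 1266 genes passed (7.41% of 17096 tested), 473 higher (2.77%) and 793 lower (4.64%). Leaving out single libraries of the comparison moved the count as far. Without OLD 2, 1346 passed, and without CON-OLD-iBP 2, 118 passed. Without CON-OLD-iBP 1, CON-OLD-iBP 3, OLD 1 or OLD 3, edgeR called 0 genes, with 2842, 3141, 2456 and 2442 genes at an unadjusted p under 0.05; DESeq2 on all libraries called 2055. With library sizes alone as the scaling, 4 passed as higher and 1 as lower. Against OLD 2 alone, the library of the same kind, 142 genes passed (0.857%), 51 higher (0.308%) and 91 lower (0.549%). Against OLD 1 and OLD 3 the number was 4593 (27.7%), 2086 higher (12.6%) and 2507 lower (15.1%). By range alone, 2376 genes (14.3%) had every CON-OLD-iBP library above every OLD library and 2620 (15.8%) had every one below. The median log2 fold change over all genes was 0.00, with 8292 genes positive and 8238 negative. The rest of the text gives each gene list by these measures, and a gene is called higher or lower than OLD 2, or than OLD with YOUNG 3 left out, only where it passed that test. Such a call against OLD 2 rests on that single library, and its effect size is the safer reading.

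Proliferation genes lay lower in CON-OLD-iBP. Of 40 tested, 39 had a negative log2 fold change, with a median of -1.34. In 35 of them (87.5%, against 15.8% of all genes) every CON-OLD-iBP library lay below every OLD library. Against OLD 2 alone the median was -1.12, again with 39 negative, and 10 passed as lower, where 0.549% of all genes did. With YOUNG 3 left out of the fit, 14 passed as lower, where 4.64% of all genes did, and none as higher, where 2.77% did. In the fit with every library, none of the 40 passed, and with a term for library set the median was -0.89.

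Cenpa, the histone of centromeres, had 6.18, 6.60 and 4.74 CPM in CON-OLD-iBP 1, 2 and 3, against 26.2, 14.3 and 29.4 CPM in OLD 1, 2 and 3 (log2 fold change -2.0, edgeR adjusted p = 0.0538; against OLD 2 -1.29, adjusted p = 0.0407). Nusap1, a spindle protein, had 4.04, 5.89 and 4.70 CPM in CON-OLD-iBP, against 23.2, 12.2 and 24.4 CPM in OLD; it was lower than OLD 2 by -1.33 (edgeR adjusted p = 0.0204). Ccne1, cyclin E, which drives entry into S phase, had 9.01, 16.3 and 14.0 CPM in CON-OLD-iBP, against 29.3, 35.6 and 29.4 CPM in OLD, and was lower than OLD 2 by -1.44 (edgeR adjusted p = 0.0288). None of the libraries of the 2 groups overlapped in these 3 genes. Mki67, the proliferation marker Ki-67, had 26.1, 40.1 and 30.7 CPM in CON-OLD-iBP, against 161, 82.7 and 150.0 CPM in OLD, with 58.6 CPM in YOUNG 3. Cdk1, the kinase that drives mitosis, had 20.4, 25.0 and 19.8 CPM in CON-OLD-iBP, against 56.0, 49.6 and 54.9 CPM in OLD, with 24.1 CPM in YOUNG 3; it was lower than OLD 2 by -1.19 (edgeR adjusted p = 0.0158). OLD 2 lay below OLD 1 and OLD 3 in Mki67 and Cenpa, and close to them in Cdk1. The sum of proliferation transcripts was 0.0809%, 0.111% and 0.0809% of counts in CON-OLD-iBP, against 0.216%, 0.175% and 0.216% in OLD and 0.0998% in YOUNG 3. In CKO-OLD it was 0.165%, 0.183% and 0.178%, between CON-OLD-iBP and OLD 1 and 3. In bulk RNA, fewer cells of a type and less of a transcript per cell cannot be told apart.

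**Figure D2:**
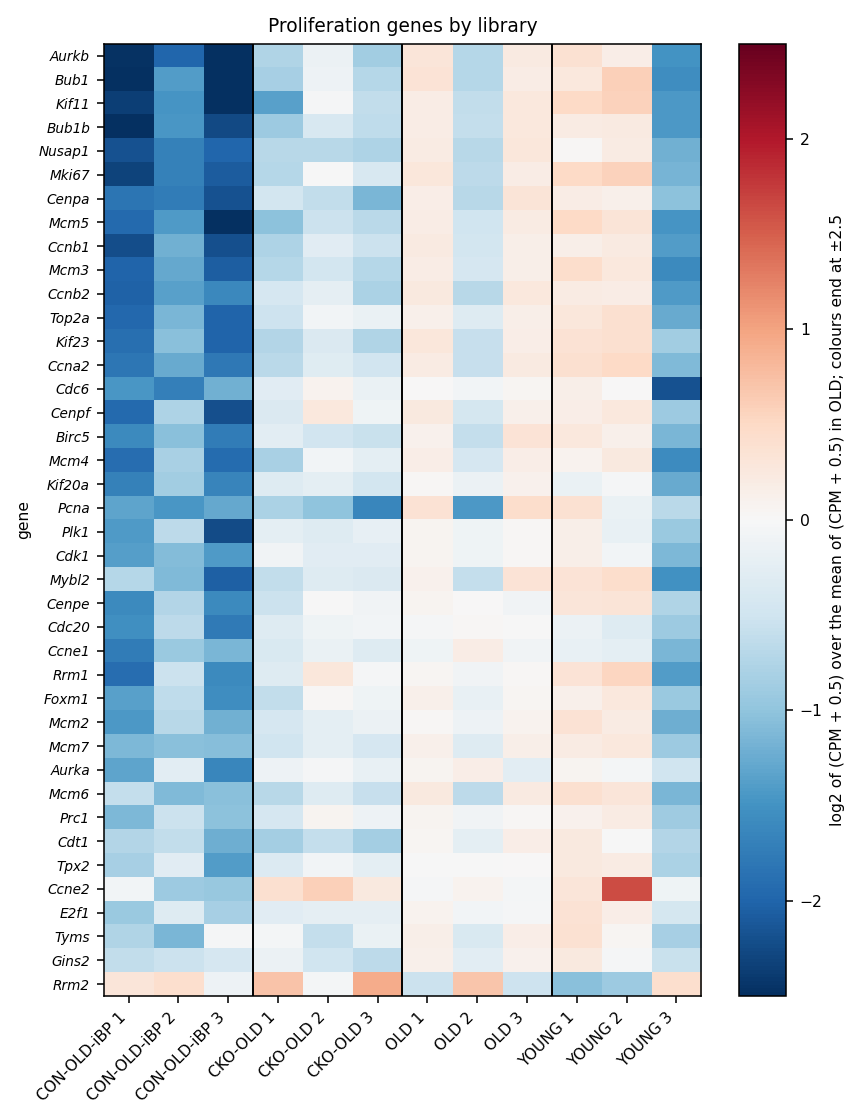
Each cell is the log2 of CPM + 0.5 in 1 library over the mean of CPM + 0.5 in OLD, for the 40 proliferation genes (rows, lowest fold change at the top) and 12 libraries (columns). The 3 CON-OLD-iBP columns and the YOUNG 3 column are the deepest blue, CKO-OLD and OLD 2 are a paler blue through most rows, with CKO-OLD 1 and 3 below the OLD mean in 38 of 40 each, YOUNG 1 and 2 are not blue as a whole, and Rrm2 at the bottom is the single gene with a positive fold change.

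The upstream region of Cdk1 is shown because cell cycle genes are known to share a CCAAT box, bound by NF-Y, and a CHR element, bound by the DREAM complex. Bases before the start site are from RefSeq, build GRCm38.p6, chr10:69352913-69353162, minus strand, 5′ to 3′, with matches to CCAAT or its reverse complement ATTGG and to TTTGAA in capitals.
Cdk1: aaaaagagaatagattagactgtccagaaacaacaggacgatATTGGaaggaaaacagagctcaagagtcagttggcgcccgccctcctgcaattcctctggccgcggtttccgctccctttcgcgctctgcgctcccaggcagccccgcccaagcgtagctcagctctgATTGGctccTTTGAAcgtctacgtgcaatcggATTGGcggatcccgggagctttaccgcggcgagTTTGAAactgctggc
TTTGAA begins at -71 and -15 relative to the start site, and ATTGG at -208, -80 and -48. In the 250 bases before the start site, on either strand, CCAAT occurred in 24 of the 32 proliferation genes with an entry (75%), against 39.9% of 12918 promoters in all. TTTGAA, with its reverse complement TTCAAA, occurred in 8 of 32 (25%), against 13.6%. The lists and motifs were chosen for known links, and a match is a description of the sequence.

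Genes that restrain the cell cycle had no common direction. Of 24 cell cycle inhibitors and p53 targets, 12 were positive and 12 negative with a median of 0.00. Cdkn2d was the single member past the threshold. Sesn1, a stress-induced p53 target, had 7.56, 6.73 and 9.57 CPM in CON-OLD-iBP, against 37.8, 17.8 and 37.9 CPM in OLD (log2 fold change -1.97, edgeR adjusted p = 0.0538). Cdkn2a, whose products include the senescence marker p16 INK4a, had 80.2, 167 and 176 CPM in CON-OLD-iBP, against 168, 138 and 172 CPM in OLD. Counts are per gene symbol, so they do not separate its transcripts. CON-OLD-iBP 1 was the lowest and CON-OLD-iBP 3 the highest of the 6 libraries in Cdkn2a, so the groups overlapped (log2 fold change -0.18, SE 1.06, edgeR adjusted p = 0.942).

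ATF4 is a transcription factor that cells raise when amino acids run short or protein synthesis is stressed, and its targets include enzymes of amino acid synthesis and tRNA charging. Of 32 such genes tested, 23 were positive with a median log2 fold change of 0.35. In 15 of them (46.9%, against 14.3% of all genes) every CON-OLD-iBP library lay above every OLD library. Against OLD 2, 29 were positive with a median of 0.69. With YOUNG 3 left out of the fit, 3 passed as higher (Chac1, Slc7a11 and Aars), where 2.77% of all genes did. In that fit 1, Atf3, passed as lower, where 4.64% of all genes did. Chac1, an enzyme that breaks down glutathione, had 44.6, 59.4 and 40.0 CPM in CON-OLD-iBP 1, 2 and 3, against 17.9, 12.3 and 16.4 CPM in OLD 1, 2 and 3. The libraries of the 2 groups were far apart, with 40.1 CPM in YOUNG 3, and Chac1 was higher than OLD 2 by 1.96 (edgeR adjusted p = 0.0161; against OLD 1.63, adjusted p = 0.0538). Asns, asparagine synthetase, had 126, 128 and 123 CPM in CON-OLD-iBP, against 116, 61.3 and 111 CPM in OLD, and was higher than OLD 2 by 1.04 (edgeR adjusted p = 0.0158). Trib3, a pseudokinase that feeds back on ATF4, had 28.1, 33.4 and 29.0 CPM in CON-OLD-iBP, against 22.9, 9.20 and 20.7 CPM in OLD, and was higher than OLD 2 by 1.71 (edgeR adjusted p = 0.0284).

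In both Asns and Trib3 the gap to OLD 1 and OLD 3 was small and OLD 2 was the low library. YOUNG 1, 2 and 3 had 141, 140.4 and 123 CPM of Asns, so YOUNG 1 and 2 lay above all CON-OLD-iBP libraries and YOUNG 3 among them. Slc7a11, the cystine importer, had 21.0, 19.6 and 12.1 CPM in CON-OLD-iBP, against 3.97, 4.65 and 4.10 CPM in OLD, with 22.8 CPM in YOUNG 3 (log2 fold change 2.05, edgeR adjusted p = 0.0767). Aars, the cytosolic alanyl-tRNA synthetase, had 439, 518 and 407 CPM in CON-OLD-iBP, against 261, 273 and 268 CPM in OLD (log2 fold change 0.77, edgeR adjusted p = 0.0555). Atf3, a stress-induced factor that is both an ATF4 target and an immediate early gene, lay on the other side, with 17.9, 9.23 and 14.8 CPM in CON-OLD-iBP, against 106, 27.1 and 109 CPM in OLD (log2 fold change -2.53, edgeR adjusted p = 0.0722). Genes of the unfolded protein response, which report stress in the endoplasmic reticulum, had 8 of 22 positive (median -0.09). In 1 of them (4.55%, against 15.8% of all genes) every CON-OLD-iBP library lay below every OLD library. Xbp1, the spliced transcription factor of this response, had 112, 117 and 68.4 CPM in CON-OLD-iBP, against 163, 90.8 and 171 CPM in OLD, with groups that overlapped.

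The upstream region of Chac1 is shown as the ATF4 list member with the smallest p among those higher than OLD. It is from RefSeq, build GRCm38.p6, chr2:119350992-119351241, plus strand, 5′ to 3′, with a match to the C/EBP-ATF response element (TGATGNAA, reverse complement TTNCATCA) in capitals.
Chac1: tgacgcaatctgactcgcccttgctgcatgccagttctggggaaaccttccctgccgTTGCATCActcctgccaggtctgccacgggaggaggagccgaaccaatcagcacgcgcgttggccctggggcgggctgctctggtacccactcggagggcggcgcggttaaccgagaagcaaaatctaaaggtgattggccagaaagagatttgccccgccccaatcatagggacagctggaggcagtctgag
The element begins at -193. It occurred in the 250 bases before the start site, on either strand, in 10 of the 28 ATF4 list members with an entry (35.7%), against 2.53% of 12918 promoters.

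NRF2 is the transcription factor that answers oxidative and electrophilic stress. The list of its targets as a whole did not lean one way, with 8 of 22 positive and a median of -0.05. In 5 of the 22 (22.7%, against 14.3% of all genes) every CON-OLD-iBP library lay above every OLD library. Srxn1, sulfiredoxin, which repairs oxidised peroxiredoxins, had 1035, 639 and 1026 CPM in CON-OLD-iBP 1, 2 and 3, against 113, 141 and 112 CPM in OLD 1, 2 and 3. The lowest CON-OLD-iBP library was several times above the highest OLD library, YOUNG 3 stood at 627 CPM and the other YOUNG libraries at 122 and 136 CPM. Srxn1 was higher than OLD 2 by 2.68 (edgeR adjusted p = 0.00593), the smallest p among genes of any list in that contrast. Against all of OLD it reached 2.89 (SE 0.523, edgeR adjusted p = 0.0538), and adjusted p = 0.000458 with YOUNG 3 left out of the fit. Txnrd1, thioredoxin reductase, had 761, 603 and 741 CPM in CON-OLD-iBP, against 213, 287 and 219 CPM in OLD, with 610.1 CPM in YOUNG 3 (edgeR adjusted p = 0.0689, and 0.0289 with YOUNG 3 left out). Cat, catalase, which breaks down hydrogen peroxide, lay lower, at 41.9, 74.7 and 61.0 CPM in CON-OLD-iBP, against 169, 85.1 and 161 CPM in OLD (log2 fold change -1.23, edgeR adjusted p = 0.055, and 0.0174 with YOUNG 3 left out), and OLD 2 was near CON-OLD-iBP.

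The upstream region of Srxn1 is shown because its promoter is known to hold an antioxidant response element, the site that NRF2 binds. It is from RefSeq, build GRCm38.p6, chr2:152105274-152105523, plus strand, 5′ to 3′, with the match to TGANTCAGC (reverse complement GCTGANTCA) in capitals.
Srxn1: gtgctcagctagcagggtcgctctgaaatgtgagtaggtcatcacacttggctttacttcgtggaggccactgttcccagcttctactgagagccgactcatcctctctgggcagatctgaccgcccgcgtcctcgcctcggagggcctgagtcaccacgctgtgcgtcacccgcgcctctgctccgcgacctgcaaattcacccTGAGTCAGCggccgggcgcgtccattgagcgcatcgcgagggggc
The match begins at -45, and 1.22% of 12918 promoters held one on either strand. Fewer than 80% of the NRF2 list had a promoter entry, so no share is given for the list.

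Cholesterol synthesis genes lay higher in CON-OLD-iBP. Of 24 enzymes and regulators, 21 were positive with a median log2 fold change of 1.02. In 18 of them (75%, against 14.3% of all genes) every CON-OLD-iBP library lay above every OLD library. Against OLD 2 the median was 0.74 with 20 positive. With YOUNG 3 left out of the fit, 11 passed as higher, where 2.77% of all genes did, and with a term for library set the median was 0.33. Cyp51, lanosterol demethylase, had 215, 172 and 123 CPM in CON-OLD-iBP 1, 2 and 3, against 35.7, 51.3 and 36.5 CPM in OLD 1, 2 and 3. No library overlapped, and YOUNG 3, at 205 CPM, lay within the CON-OLD-iBP range. Cyp51 was higher than OLD 2 by 1.73 (edgeR adjusted p = 0.0448; against OLD 2.05, adjusted p = 0.0618). Hsd17b7, a sterol ketoreductase of the same pathway, had 170.0, 166 and 127 CPM in CON-OLD-iBP, against 34.8, 60.5 and 31.8 CPM in OLD (log2 fold change 1.86, edgeR adjusted p = 0.055). Idi1, isopentenyl diphosphate isomerase, had 22.6, 17.0 and 44.7 CPM in CON-OLD-iBP, against 8.29, 9.52 and 3.51 CPM in OLD (log2 fold change 1.98, edgeR adjusted p = 0.0555). CKO-OLD, with no iBP in its label, had 62.3, 71.8 and 74.0 CPM of Cyp51, above every OLD library and below every CON-OLD-iBP library.

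**Figure D3:**
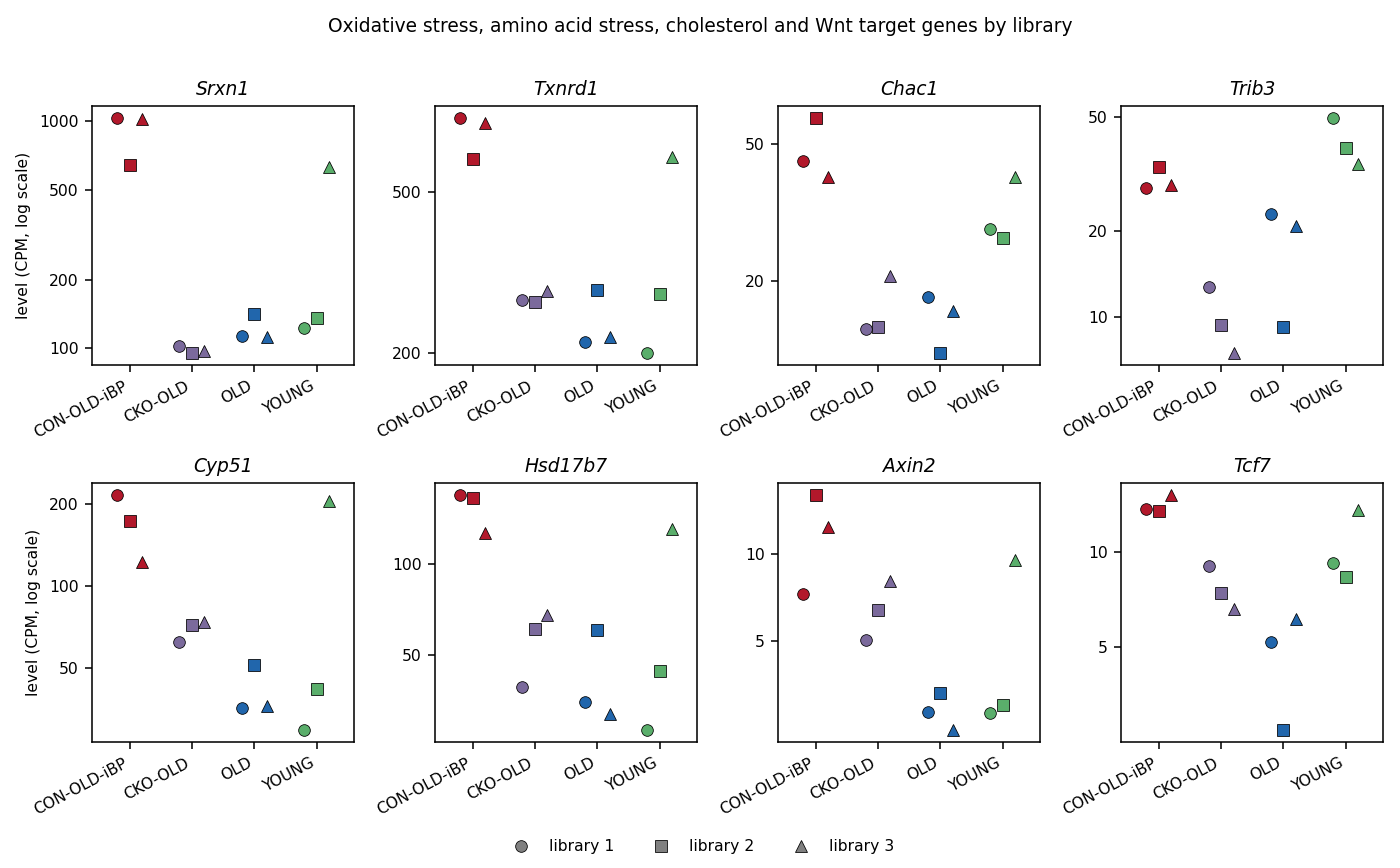
Level in CPM on log axes of 8 genes, 1 point per library in each of 4 groups. Srxn1, Txnrd1, Cyp51 and Hsd17b7 were high in CON-OLD-iBP and in YOUNG 3 (the YOUNG triangle) and low elsewhere; Trib3 was higher in all 3 YOUNG libraries than in any CON-OLD-iBP library; Axin2 and Tcf7 were above every OLD library in every CON-OLD-iBP library.

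Other metabolic lists had medians nearer to 0. Nuclear genes of oxidative phosphorylation had 27 of 35 negative with a median of -0.36, and against OLD 2 the median was -0.15. In 18 of them (51.4%, against 15.8% of all genes) every CON-OLD-iBP library lay below every OLD library. Sdha, a subunit of succinate dehydrogenase, had 137, 185 and 113 CPM in CON-OLD-iBP, against 278, 212 and 281 CPM in OLD (log2 fold change -0.82, edgeR adjusted p = 0.0538). Uqcrc2, a core subunit of complex III, had 88.0, 76.9 and 81.3 CPM in CON-OLD-iBP, against 145, 98.6 and 147 CPM in OLD (log2 fold change -0.66, edgeR adjusted p = 0.0609). OLD 2 lay nearest to CON-OLD-iBP in both. Glycolysis and hypoxia genes had 11 of 30 positive (median -0.11). Ndrg1, a member raised by hypoxia and differentiation, had 274, 85.2 and 161 CPM in CON-OLD-iBP, against 46.9, 11.6 and 48.7 CPM in OLD. Its log2 fold change was 2.28 against OLD (edgeR adjusted p = 0.113) and 3.90 against OLD 2. Ribosomal protein genes had 35 of 46 negative against OLD (median -0.12) and 41 of 46 positive against OLD 2 (median 0.12), and none of them separated the groups by range. Heat shock proteins and co-chaperones had 15 of 24 positive (median 0.09). Among these, Hspb1, a small heat shock protein, had 305, 375 and 417 CPM in CON-OLD-iBP, against 84.2, 199.9 and 83.0 CPM in OLD (log2 fold change 1.58, edgeR adjusted p = 0.055).

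Genes of bone formation showed no shared direction. Osteoblast matrix and mineral genes had 14 of 24 positive (median 0.15), and 1 lay above and 1 below all OLD libraries (4.17% each, against 14.3% and 15.8% of all genes). The 15 markers listed for the osteoblast itself were all detected, took 2.73%, 3.26% and 1.66% of counts in CON-OLD-iBP against 3.93%, 3.20% and 3.94% in OLD, and had a median of -0.44. Against OLD 2 their median was -0.14, and with a term for library set it was -0.09. Col1a1, the main collagen of bone, had 5485, 8735 and 2909.6 CPM in CON-OLD-iBP, against 10220.0, 5648 and 10477 CPM in OLD, with the lowest value in CON-OLD-iBP 3 (log2 fold change -0.62, SE 0.389, edgeR adjusted p = 0.351). Alpl, the phosphatase that allows mineral to form, had 207, 197 and 43.4 CPM in CON-OLD-iBP, against 171, 83.7 and 182 CPM in OLD (log2 fold change 0.04, SE 0.587). CON-OLD-iBP 3 was again the lowest library, and the other CON-OLD-iBP libraries lay above all of OLD. Phospho1, another phosphatase of early mineral formation, had 116, 84.7 and 30.6 CPM in CON-OLD-iBP, against 39.8, 50.1 and 42.8 CPM in OLD. Bglap, osteocalcin, had 31.8, 44.5 and 31.2 CPM in CON-OLD-iBP, against 25.2, 39.5 and 27.3 CPM in OLD (log2 fold change 0.22, SE 1.15, edgeR adjusted p = 0.933).

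Among 20 osteoblast transcription factors, 9 were positive and 11 negative, and the median was -0.07. Of these, 4 lay above and 4 below all OLD libraries (20% each, near the 14.3% and 15.8% of all genes). Runx2, the factor that sets the osteoblast lineage, had 39.2, 62.3 and 47.4 CPM in CON-OLD-iBP, against 64.7, 77.9 and 59.0 CPM in OLD (log2 fold change -0.44, edgeR adjusted p = 0.326). Sp7, osterix, which acts after Runx2, had 34.8, 78.5 and 25.6 CPM in CON-OLD-iBP, against 60.4, 80.8 and 62.1 CPM in OLD (log2 fold change -0.55, edgeR adjusted p = 0.473). Both overlapped between the groups. Pth1r, the receptor for parathyroid hormone, had 23.6, 42.3 and 19.4 CPM in CON-OLD-iBP, against 84.2, 26.4 and 81.8 CPM in OLD, and OLD 2 lay within the CON-OLD-iBP range. Junb, an AP-1 factor, had 199, 197 and 125 CPM in CON-OLD-iBP, against 637, 283 and 619 CPM in OLD (log2 fold change -1.56, edgeR adjusted p = 0.055), and Snai2, which marks mesenchymal cells, had 18.9, 39.8 and 27.2 CPM in CON-OLD-iBP, against 67.8, 82.9 and 67.2 CPM in OLD. Osteocyte genes had 6 of 12 positive (median 0.06).

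Among signals from osteoblasts to osteoclasts, the cells that resorb bone, RANKL and its decoy had fold changes of opposite sign. Neither passed against OLD. Tnfrsf11b, osteoprotegerin, the decoy that blocks RANKL, had 975, 278 and 218 CPM in CON-OLD-iBP 1, 2 and 3, against 18.7, 31.3 and 18.7 CPM in OLD 1, 2 and 3. CON-OLD-iBP 1 was the highest, all of them were above all of OLD, and YOUNG 3 and CKO-OLD 3, at 592 and 317 CPM, were also high (log2 fold change 4.42, SE 1.29, edgeR adjusted p = 0.0726, and 0.025 with YOUNG 3 left out of the fit). Tnfsf11, RANKL itself, had 2.97, 2.26 and 2.59 CPM in CON-OLD-iBP, against 11.5, 3.82 and 11.0 CPM in OLD (log2 fold change -1.75, edgeR adjusted p = 0.244). OLD 2 lay near CON-OLD-iBP in Tnfsf11. Against OLD 2 alone, the log2 fold change was -0.55 for Tnfsf11 and 3.97 for Tnfrsf11b. The 15 coupling signals as a list had 6 positive and a median of -0.17. Of them, 3 lay above and 4 below all OLD libraries (20% and 26.7%, against 14.3% and 15.8% of all genes). Cd44, a hyaluronan receptor held in the osteocyte list, had 1982, 1669.9 and 1212 CPM in CON-OLD-iBP, against 453, 750.4 and 449 CPM in OLD (log2 fold change 1.56, edgeR adjusted p = 0.0927, and 0.0229 with YOUNG 3 left out).

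Collagens had 15 of 21 negative with a median of -0.35. None lay below all OLD libraries (15.8% of all genes did) and 2 above (9.52%, against 14.3% of all genes). Col5a3, a chain of type V collagen, had 251, 212 and 216 CPM in CON-OLD-iBP, against 57.5, 43.1 and 54.7 CPM in OLD, with 263 CPM in YOUNG 3, and was higher than OLD 2 by 2.39 (edgeR adjusted p = 0.0158). Collagen processing enzymes had 11 of 22 positive (median 0.00). Matrix proteases and their inhibitors had 11 of 21 positive (median 0.01). Mmp10, stromelysin 2, had 187, 79.6 and 70.4 CPM in CON-OLD-iBP, against 0.406, 4.90 and 0.463 CPM in OLD, with 106 CPM in YOUNG 3 and 0.503 to 0.732 CPM in CKO-OLD. It was higher than OLD 2 by 4.52 (edgeR adjusted p = 0.0204; against OLD 5.88, adjusted p = 0.0975), and OLD 2 was the highest of the OLD libraries.

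The Wnt pathway is given by role. Of 17 ligands and R-spondins tested, 10 were positive with a median of 0.17. Of the 17, 4 lay above and 1 below all OLD libraries (23.5% and 5.88%, against 14.3% and 15.8% of all genes). Wnt2 had 4.71, 10.2 and 4.32 CPM in CON-OLD-iBP, against 0, 1.08 and 0.0597 CPM in OLD (log2 fold change 4.09, SE 1.6, edgeR adjusted p = 0.145), and Wnt2b had 1.17, 2.05 and 1.09 CPM in CON-OLD-iBP, against 0.159, 0.460 and 0.522 CPM in OLD. Wnt7a, with 0.465, 1.1 and 0.649 CPM in CON-OLD-iBP, had no count in OLD, a level at least 48.1-fold higher than a floor of 3 counts over the OLD libraries. CKO-OLD had it too, at 2.05, 0.46 and 0.411 CPM. Of 19 receptors, 10 were positive with a median of 0.00; Fzd10 had the smallest p, at 0.202, 0.220 and 0.223 CPM in CON-OLD-iBP, against 0.0579, 0 and 0 CPM in OLD, all below 1 CPM. Of 10 secreted antagonists, 5 were positive with a median of 0.37. Wif1, which binds Wnt ligands, had 86.2, 44.5 and 15.3 CPM in CON-OLD-iBP, against 16.3, 10.1 and 15.1 CPM in OLD, with CON-OLD-iBP 3 inside the OLD range. Notum, an enzyme that strips the lipid from Wnt proteins, had 83.7, 36.2 and 34.2 CPM in CON-OLD-iBP, against 10.2, 26.2 and 8.01 CPM in OLD, with 52.9 to 70.6 CPM in CKO-OLD and 110.2 CPM in YOUNG 3. Frzb had 8.81, 10.9 and 3.47 CPM in CON-OLD-iBP, against 3.23, 5.22 and 3.07 CPM in OLD, and neither gene passed (edgeR adjusted p = 0.407 and 0.33).

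Beta-catenin target genes had 11 of 20 positive (median 0.22). In 8 of the 20 (40%, against 14.3% of all genes) every CON-OLD-iBP library lay above every OLD library. Against OLD 2, 14 were positive with a median of 0.67. With YOUNG 3 left out of the fit, 3 passed as higher, where 2.77% of all genes did. These were Tcf7 (adjusted p = 0.0201), Cd44 (0.0229) and Axin2 (0.0457), all by edgeR. Tcf7, which encodes the TCF1 partner of beta-catenin, had 13.8, 13.5 and 15.2 CPM in CON-OLD-iBP 1, 2 and 3, against 5.17, 2.71 and 6.13 CPM in OLD 1, 2 and 3. All CON-OLD-iBP libraries were above all OLD libraries, and OLD 2 was the lowest (against OLD 2 2.39, edgeR adjusted p = 0.0178; against OLD 1.60, adjusted p = 0.0538). Axin2, a feedback inhibitor and the usual reporter of the pathway, had 7.27, 16.0 and 12.4 CPM in CON-OLD-iBP, against 2.84, 3.29 and 2.45 CPM in OLD (log2 fold change 2.06, SE 0.639, edgeR adjusted p = 0.0833; against OLD 2 1.85, adjusted p = 0.157). Lef1, the partner factor and itself a target, had 1.96, 1.36 and 1.28 CPM in CON-OLD-iBP, against 0, 0.177 and 0.313 CPM in OLD (log2 fold change 3.22, edgeR adjusted p = 0.0867). Ccnd1, cyclin D1, had 1357, 1258 and 1677 CPM in CON-OLD-iBP, against 903, 1064 and 900.4 CPM in OLD (log2 fold change 0.58, edgeR adjusted p = 0.487). Both groups of 3 were apart in each of these genes, and YOUNG 3 had 13.6 CPM of Tcf7, 9.50 CPM of Axin2 and 5.21 CPM of Lef1.

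Among other signalling lists, TGF-beta ligands, receptors and targets had 12 of 20 positive (median 0.47, or -0.01 with a term for library set). Of the 20, 5 lay above all OLD libraries (25%, against 14.3% of all genes). Inhba, the activin A subunit, had 3152, 2187 and 1682 CPM in CON-OLD-iBP, against 378, 601 and 365 CPM in OLD, with 2325 CPM in YOUNG 3 (log2 fold change 2.39, edgeR adjusted p = 0.0638, and 0.0119 with YOUNG 3 left out). Ccn2, a matricellular TGF-beta and YAP target, had 4165, 3309.9 and 1552 CPM in CON-OLD-iBP, against 997, 1219 and 974 CPM in OLD (log2 fold change 1.50, edgeR adjusted p = 0.113). Both were above all of OLD in every CON-OLD-iBP library. BMP ligands, receptors and feedback genes had 14 of 28 positive (median 0.01). Within that list, Fst, follistatin, which traps activins, had 297, 121 and 196 CPM in CON-OLD-iBP, against 43.3, 62.8 and 43.4 CPM in OLD (log2 fold change 2.04, edgeR adjusted p = 0.055). The BMP target Id3 had 125, 172 and 133 CPM in CON-OLD-iBP, against 377, 229 and 378 CPM in OLD (log2 fold change -1.19, edgeR adjusted p = 0.057), and Id2 had 33.6, 23.0 and 28.8 CPM in CON-OLD-iBP, against 152, 41.6 and 145 CPM in OLD. The activin trap thus lay higher and the Id genes lower, and in Id2 OLD 2 was near CON-OLD-iBP. Hedgehog, FGF and IGF genes had 18 of 33 positive (median 0.15), against a median of -0.25 when set against OLD 2 alone. Fgf1 had 10.5, 4.37 and 7.40 CPM in CON-OLD-iBP, against 0.869, 2.32 and 0.582 CPM in OLD (log2 fold change 2.56, edgeR adjusted p = 0.0538). Notch genes had 6 of 13 positive (median -0.16) and adenosine receptors and enzymes 8 of 16 (median -0.02). Against OLD 2 these medians were 0.42 and 0.53. Slc29a2, a nucleoside transporter of the adenosine list, had 5.68, 3.27 and 3.87 CPM in CON-OLD-iBP, against 1.84, 1.70 and 2.31 CPM in OLD (log2 fold change 1.13, edgeR adjusted p = 0.111).

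Of the Polycomb complexes, PRC1.1 subunits had 5 of 10 positive (median -0.02). Kdm2b, the CpG-binding subunit, had 19.3, 24.0 and 16.2 CPM in CON-OLD-iBP, against 34.3, 19.3 and 31.1 CPM in OLD, and the OLD 2 level fell inside the CON-OLD-iBP range (log2 fold change -0.51, SE 0.41, edgeR adjusted p = 0.486). Bcor, the scaffold, had 31.3, 43.2 and 18.6 CPM in CON-OLD-iBP, against 32.7, 37.2 and 30.6 CPM in OLD, and Pcgf1, the RING1 partner that defines the complex, had 13.3, 8.75 and 19.1 CPM in CON-OLD-iBP, against 8.20, 9.18 and 8.57 CPM in OLD (log2 fold changes -0.11 and 0.66, edgeR adjusted p = 0.901 and 0.207). Yaf2, shared with other PRC1 forms, had 24.2, 25.4 and 30.4 CPM in CON-OLD-iBP, against 41.9, 32.6 and 40.9 CPM in OLD (edgeR adjusted p = 0.145, and 0.048 with YOUNG 3 left out). The other PRC1 subunits had 11 of 22 positive (median 0.09), and H2A deubiquitinases and their partners 10 of 15 with a median of 0.15.

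PRC2, which methylates histone H3 and is recruited in part by the H2A mark, had 9 of 12 subunits negative with a median of -0.28, and 6 (50%, against 15.8% of all genes) had every CON-OLD-iBP library below every OLD library. The median was -0.25 against OLD 2 and -0.15 with a term for library set. Phf19, an accessory subunit, had 1.78, 3.30 and 0.831 CPM in CON-OLD-iBP, against 12.4, 7.18 and 10.5 CPM in OLD (log2 fold change -2.34, edgeR adjusted p = 0.0538, and 0.0151 with YOUNG 3 left out). YOUNG 3 stood at 3.92 CPM of Phf19, against 10.3 and 11.1 CPM in YOUNG 1 and 2. Eed, a core subunit, had 32.0, 25.4 and 26.9 CPM in CON-OLD-iBP, against 39.4, 35.6 and 38.1 CPM in OLD (log2 fold change -0.43, edgeR adjusted p = 0.102). Aebp2, a cofactor of a different PRC2 form, was the opposite, with 169.7, 153 and 218 CPM in CON-OLD-iBP, against 95.4, 113 and 103 CPM in OLD (log2 fold change 0.79, edgeR adjusted p = 0.06).

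Developmental transcription factors, the class of gene on which Polycomb marks are known to lie, were mostly at low levels. Of 94 listed, 63 passed the filter on low counts. Of these, 45 were positive and 16 negative with a median of 0.93, or 0.49 with a term for library set. In all, 12 lay above and 4 below all OLD libraries (19.0% and 6.35%, against 14.3% and 15.8% of all genes). A gene that passed the filter through its CON-OLD-iBP counts had to differ, so these figures give no direction for the list. Nkx6-1, a neural tube and islet factor, had 4.02, 1.19 and 2.78 CPM in CON-OLD-iBP, against 0.174, 0 and 0 CPM in OLD (log2 fold change 5.43, SE 1.24, edgeR adjusted p = 0.0538). Irx1, a limb and heart patterning factor, had 2.63, 1.89 and 1.42 CPM in CON-OLD-iBP and no count in OLD, at least 127-fold higher than a floor of 3 counts over the OLD libraries, with 7.05 CPM in YOUNG 3. Foxl1, a mesenchymal forkhead factor, had 2.93, 4.97 and 4.80 CPM in CON-OLD-iBP, against 1.45, 1.56 and 1.90 CPM in OLD. CKO-OLD had 1.55 to 3.40 CPM of Nkx6-1 and 2.75 to 3.97 CPM of Foxl1, within or near the CON-OLD-iBP range. Hox genes had 28 of 35 positive (median 0.52), with 6 above all OLD libraries (17.1%, against 14.3% of all genes) and none below (15.8% of all genes). Against OLD 2 the median was 0.53 with 26 positive. Hoxb3 had 0.970, 1.01 and 3.47 CPM in CON-OLD-iBP, against 1.78, 0.0531 and 1.85 CPM in OLD, so OLD 2 was the low library and the groups overlapped. Hoxa5 had 12.3, 6.31 and 12.8 CPM in CON-OLD-iBP, against 4.91, 4.51 and 4.98 CPM in OLD (log2 fold change 1.12, edgeR adjusted p = 0.0538), Hoxa11, a gene of the forearm and lower leg, had 15.0, 12.0 and 9.71 CPM in CON-OLD-iBP, against 1.46, 4.40 and 2.61 CPM in OLD, and Hoxa3 had 4.85, 2.39 and 5.21 CPM in CON-OLD-iBP, against 1.30, 1.64 and 1.67 CPM in OLD.

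The largest list medians belonged to markers of other cells. All 28 macrophage markers were negative (median -3.64), and 17 lay below all OLD libraries (60.7%, against 15.8% of all genes). With YOUNG 3 left out, 18 passed as lower, where 4.64% of all genes did. Against OLD 2 the median was -0.87 and none passed, and with a term for library set it was -1.29. Of the 28, 1 member, Ccr2, had no count in any CON-OLD-iBP library. Adgre1, F4/80, had 6.89, 14.3 and 12.1 CPM in CON-OLD-iBP, against 357, 23.8 and 340.2 CPM in OLD, and Mrc1, the mannose receptor, had 2.91, 3.80 and 5.27 CPM in CON-OLD-iBP, against 175, 11.4 and 167 CPM in OLD (edgeR adjusted p = 0.0538 and 0.0538). Osteoclast markers had 13 of 15 negative (median -3.41; against OLD 2 -0.55). Mmp9, a protease of osteoclasts, had 0.647, 1.32 and 0.872 CPM in CON-OLD-iBP, against 747, 5.01 and 763 CPM in OLD, and Acp5, the phosphatase TRAP, had 4.44, 2.57 and 10.1 CPM in CON-OLD-iBP, against 596, 25.8 and 632 CPM in OLD. In these genes OLD 1 and OLD 3 were high, and OLD 2 lay far nearer to CON-OLD-iBP. Marrow stroma and adipocyte markers had 12 of 14 negative (median -1.96), and a median of 0.02 against OLD 2.

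Chondrocyte markers had 17 of 18 positive (median 3.49), and with a term for library set the median was 0.89. But 3 of the 18 (16.7%, near the 14.3% of all genes) had every CON-OLD-iBP library above every OLD library. Col2a1, the collagen of cartilage, had 7591, 12.1 and 264 CPM in CON-OLD-iBP, against 21.9, 12.2 and 24.2 CPM in OLD. CON-OLD-iBP 1 carried it, CON-OLD-iBP 2 lay at the level of OLD, and YOUNG 3 and CKO-OLD 3 held 13549 and 8015 CPM. Sox9, the chondrocyte lineage factor, had 258, 123 and 90.5 CPM in CON-OLD-iBP, against 14.1, 63.2 and 15.3 CPM in OLD, and Col10a1, of hypertrophic cartilage, had 194, 4.88 and 2.82 CPM in CON-OLD-iBP, against 0.942, 1.49 and 0.851 CPM in OLD. The endothelial, lymphocyte, erythroid, skeletal muscle and Schwann cell lists each took at most 0.0177% of counts in any CON-OLD-iBP, OLD or YOUNG 3 library. Neutrophil markers took 0.0207%, 0.0025% and 0.0101% in CON-OLD-iBP, against 0.0018%, 0.00226% and 0.00178% in OLD, with 0.0256% in YOUNG 3, and their part in other results was not tested. Fibroblast markers had 9 of 16 positive (median 0.07) and pericyte and smooth muscle markers 12 of 16 negative (median -0.72; -0.26 against OLD 2 and 0.082 with a term for library set).

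**Figure D4:**
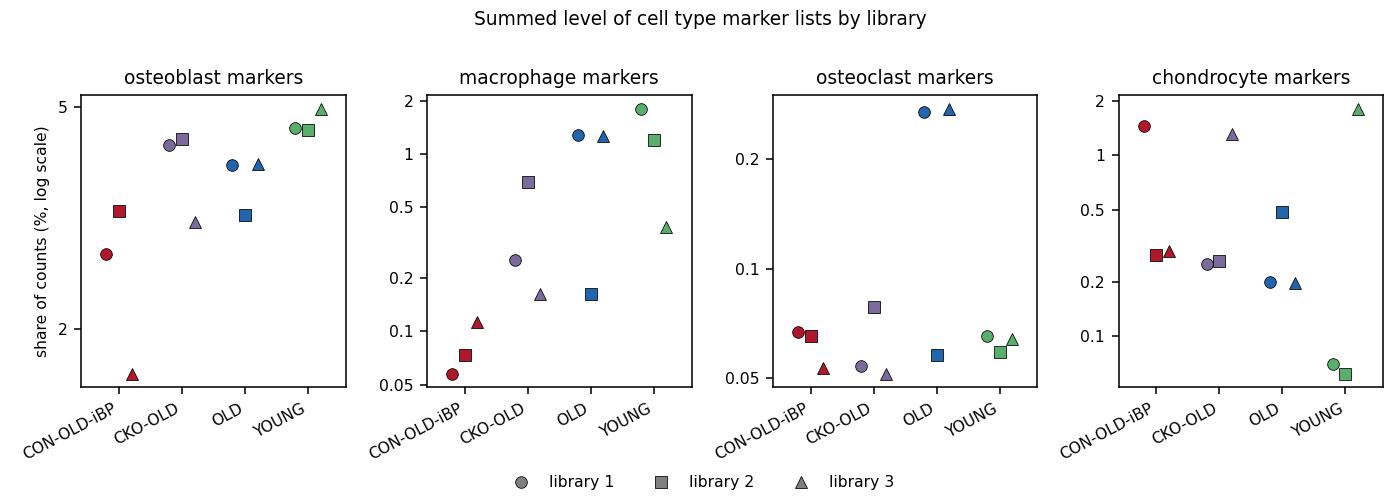
Summed share of counts (percent, log axis) of 4 marker lists, 1 point per library. Macrophage markers were at 0.0572% to 0.113% in CON-OLD-iBP, against 1.28%, 0.163% and 1.27% in OLD; osteoclast markers were high in OLD 1 and OLD 3 alone; chondrocyte markers were highest in CON-OLD-iBP 1, CKO-OLD 3 and YOUNG 3.

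Inflammatory and interferon lists had negative medians against OLD. Interferon response genes had 26 of 35 negative (median -0.91), with a median of -0.22 against OLD 2 and 0.03 with a term for library set. Oas3, an antiviral sensor, had 1.68, 3.05 and 2.31 CPM in CON-OLD-iBP, against 27.4, 3.08 and 30.1 CPM in OLD, and Psmb8, a subunit of the immunoproteasome, had 2.38, 8.53 and 5.82 CPM in CON-OLD-iBP, against 55.8, 8.65 and 59.0 CPM in OLD. Secreted inflammatory factors had 17 of 28 negative (median -0.20). Their median was -0.46 against OLD 2, -0.22 against OLD 1 and OLD 3 and -0.70 with a term for library set. Of the 28, 5 lay above and 10 below all OLD libraries (17.9% and 35.7%, against 14.3% and 15.8% of all genes). Tnf, a cytokine made largely by macrophages, had 1.58, 1.43 and 0.892 CPM in CON-OLD-iBP, against 26.3, 6.58 and 23.7 CPM in OLD; Ccl2, a monocyte attractant, had 57.0, 55.8 and 66.3 CPM in CON-OLD-iBP, against 235, 169 and 231 CPM in OLD; and Il6 had 3.29, 2.81 and 6.10 CPM in CON-OLD-iBP, against 17.0, 6.56 and 13.7 CPM in OLD. None of the 3 passed (edgeR adjusted p = 0.0688, 0.104 and 0.0827), and with YOUNG 3 left out of the fit Tnf and Ccl2 passed as lower and Il6 did not (adjusted p = 0.0254, 0.0417 and 0.0652). Immediate early genes, which answer growth factors and handling within minutes to hours, had 17 of 25 negative (median -0.30). This median was -0.37 against OLD 2 and -0.07 with a term for library set. Of the 25, 12 lay below all OLD libraries (48%, against 15.8% of all genes). Zfp36, which destabilises cytokine mRNAs, had 74.9, 100.5 and 60.6 CPM in CON-OLD-iBP, against 429.7, 209.9 and 429 CPM in OLD and was lower than OLD 2 by -1.42 (edgeR adjusted p = 0.024). Maff, a small MAF factor and partner of NRF2, was the opposite, with 272, 161 and 508 CPM in CON-OLD-iBP, against 42.2, 95.8 and 47.9 CPM in OLD (log2 fold change 2.34, edgeR adjusted p = 0.0599). Macrophage marker transcripts were 0.0572% to 0.113% of counts in CON-OLD-iBP against 1.27% and 1.28% in OLD 3 and OLD 1 and 0.163% in OLD 2, and their part in these lists was not tested.

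**Figure D5:**
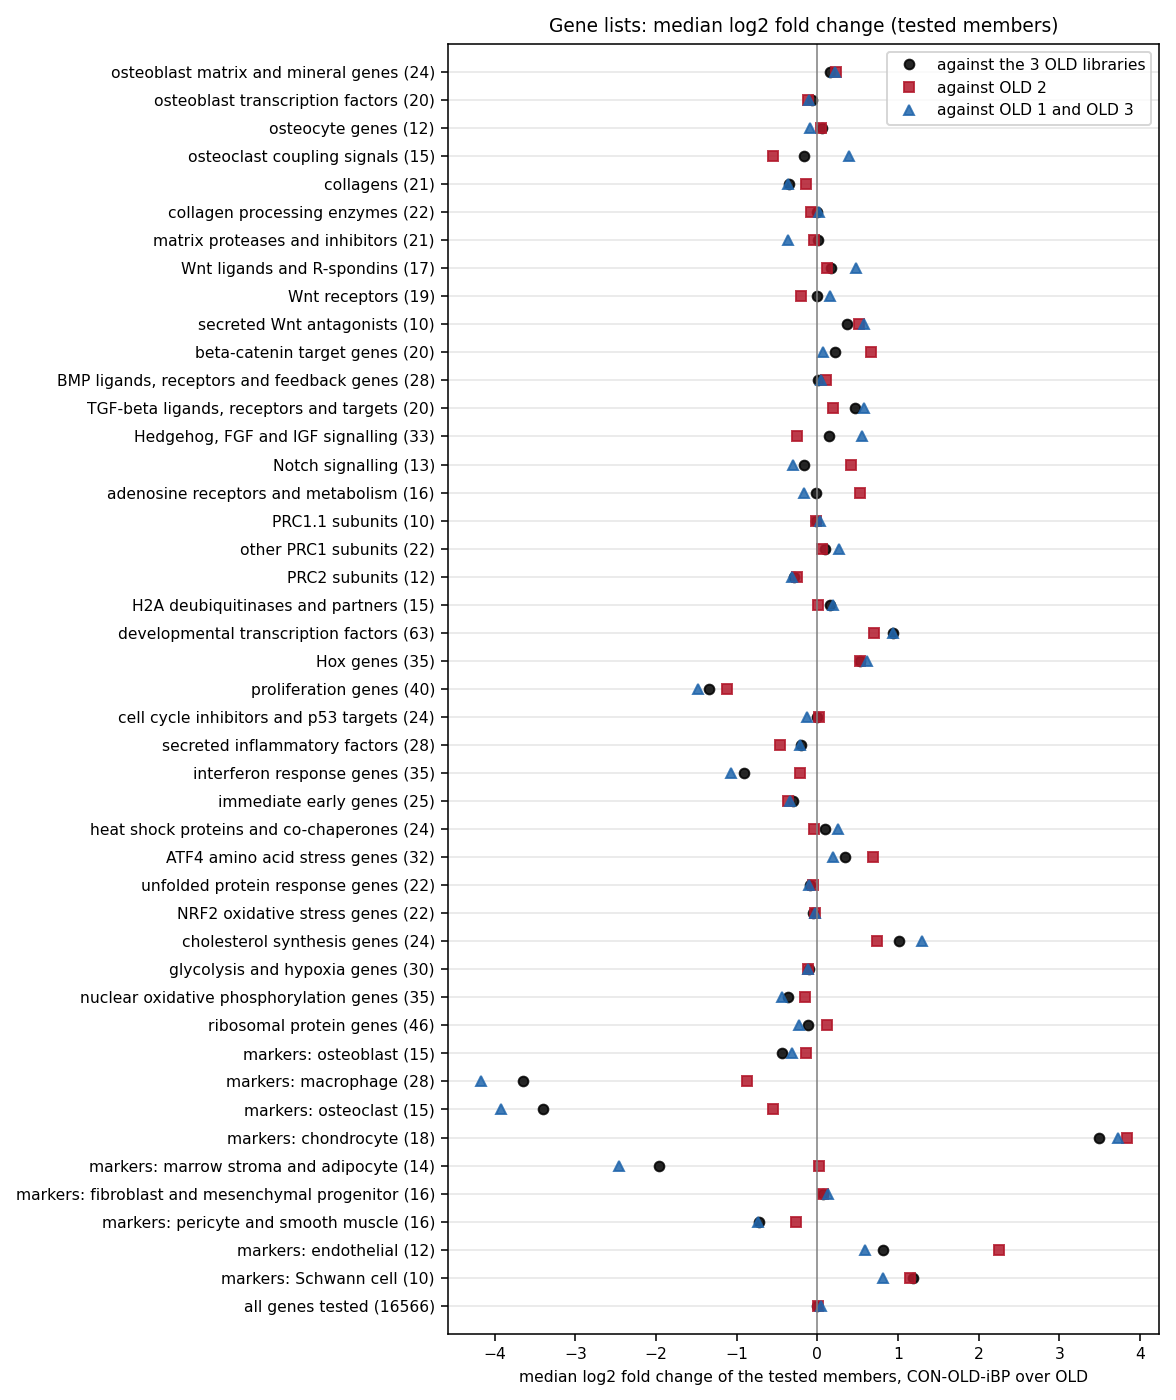
Median log2 fold change of the tested members of each list with at least 10 members, CON-OLD-iBP over the 3 OLD libraries (circles), over OLD 2 (squares) and over OLD 1 and OLD 3 (triangles), with the number of members in brackets. Proliferation genes (-1.34, -1.12 and -1.48), cholesterol genes (1.02, 0.74 and 1.30) and macrophage markers (-3.64, -0.87 and -4.17) kept their sign in all 3. The macrophage median lay much nearer to 0 against OLD 2. All 3 contrasts share the same CON-OLD-iBP libraries, so they are not independent. With a term for library set, not drawn here, the medians of these lists were -0.89, 0.33 and -1.29.

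CKO-OLD offers another old group, with the Ocn-cre and Ai14 alleles of the control line but without its Kdm2b domain and without iBP. Against it, 213 genes passed (1.29%), 119 higher in CON-OLD-iBP (0.718%) and 94 lower (0.567%). Oga was among them with an adjusted p of 0.00235, Dok5 with 0.0148 and Cdkn2d with 0.0209 (edgeR). Srxn1 had 102, 94.6 and 97.0 CPM in CKO-OLD, below every CON-OLD-iBP and OLD library (edgeR adjusted p = 0.0209 against CKO-OLD). Chac1 had 14.5, 14.7 and 20.6 CPM there (edgeR adjusted p = 0.0242). Axin2, at 5.05, 6.39 and 8.09 CPM in CKO-OLD, overlapped with CON-OLD-iBP (edgeR adjusted p = 0.461), as did Lef1. CKO-OLD and OLD are both compared with the same 3 CON-OLD-iBP libraries, so the 2 comparisons share them.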

How the data were processed

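RNA sequencing of 18 libraries was analysed as 6 groups of 3, taken from the submitters' titles; 8 CUT&Tag libraries were not analysed here. The authors deposited raw counts per gene symbol, as whole numbers with no normalisation. Per the submitters' processing notes, FastQC, Trim Galore, HISAT2 and mm39 were used; the counting program, tool versions and use of strand were not given in the sources used here, so overlapping genes and close paralogs may share counts.

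Genes were filtered with edgeR's filterByExpr (minimum count 10, minimum total 15; 16566 kept), scaled by TMM and tested with the quasi-likelihood F test over all 18 libraries (6 group coefficients, 12 residual degrees of freedom), two-sided, with Benjamini-Hochberg adjustment and a threshold of 0.05. The contrasts with OLD 2 and with OLD 1 and OLD 3 used 1 coefficient per group and library set; the 3 sets came from the Malat1 share and group label. Against OLD 2 the spread comes from the other libraries. The biological coefficient of variation was 51.9%. One count is worth 0.0145 to 0.0203 CPM in CON-OLD-iBP and OLD, a limit from counting error only. Scripts were tested on simulated data.

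The comparison, gene lists and tests were chosen with earlier results of these data known. Named genes are those past the threshold, of which 1 is not reported here; in each list, members among the 3 of smallest p or past the threshold; and Kdm2b, Bcor, Pcgf1, Axin2, Lef1, Runx2, Sp7, Col1a1, Bglap, Alpl and Cdkn2a. Outside this rule, and picked with their values in view, are Asns, Ccnd1, Ccr2, Cdk1, Hoxb3, Mki67, Ndrg1, Slc7a11, Trib3 and the genes of the closing observations. The same holds for the motifs and the fits without YOUNG 3, with OLD 1 and OLD 3 summed, and at an adjusted p of 0.10. Alternatives were other scalings and filters, the 6 libraries alone, a replicate block, a library set term, limma-voom, DESeq2 and leaving out each library. Promoter sequences are RefSeq, GRCm38.p6, matched by symbol; no genome was used. Python 3.11.15 (matplotlib 3.10.9) and R 4.3.3 were used, with DESeq2 1.42.0, limma 3.58.1 and edgeR 4.0.16.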

Additional observations from a re-analysis of the deposited data

How the results depend on the processing

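The count of genes past the threshold in CON-OLD-iBP against OLD, 4 (2 higher, 2 lower), stayed at 4 without a low count filter. It was 2 (1 and 1) with upper-quartile scaling, 5 (4 and 1) with library size alone, 378 (155 and 223) with the stricter filter of 1 CPM in 3 libraries, 30 (26 and 4) with the 6 libraries alone, 2055 (902 and 1153) with DESeq2 and 6663 (3455 and 3208) with limma-voom. It was 142 (51 and 91) against OLD 2, 4593 (2086 and 2507) against OLD 1 and OLD 3, and 1572 (595 and 977) at an adjusted p of 0.10. It was 0 with a term for library set (1655 genes at an unadjusted p under 0.05, edgeR) and 0 with OLD 1 and OLD 3 summed as 1 library (2446). Leaving out single CON-OLD-iBP or OLD libraries gave 0 to 1346 genes (0 to 461 higher, 0 to 885 lower), and without YOUNG 3 it was 1266 (473 and 793). The causes of these shifts were not tested.

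Deviations of same-numbered libraries had correlations of -0.0627, 0.0242 and 0.0812. Because OLD 1 and OLD 3 were nearly alike (Spearman correlation 0.995), this cannot decide whether the replicate numbers pair the samples. With the number as a replicate block the 6 libraries gave 2 genes (2 higher, 0 lower). Oga, Dok5 and Cdkn2d kept their direction in all 19 alternatives and passed in 12, 11 and 9 of them.

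Some log2 fold changes reversed, including that of Notum, at 1.80 against OLD, and those of Pth1r (-1.17), Col1a1 (-0.62) and Xbp1 (-0.52). Against OLD 2, Col1a1 was at 0.016, Bglap at -0.14, Kdm2b at 0.039, Cdkn2a at 0.028, Pth1r at 0.11 and Xbp1 at 0.12. With the library set term, Bglap was at -0.088, Kdm2b at 0.027, Cdkn2a at 0.25 and Notum at -0.39. Alpl was at -0.037 with library size alone, -0.13 with the replicate block, -0.24 against OLD 1 and OLD 3 and -0.15 with limma-voom. Hoxb3 was at -0.0022 against OLD 1 and OLD 3 and -0.46 with limma-voom. Leaving out 1 library gave -0.29 to 0.45 for Alpl, -0.46 to 0.13 for Bcor, -0.39 to 0.083 for Cdkn2a and -0.35 to 0.98 for Hoxb3.

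Of 911 list medians under an alternative, 167 moved by more than the spread between replicates. The medians of the BMP, PRC1.1, Wnt receptor, adenosine, cell cycle inhibitor, collagen processing, matrix protease and osteocyte lists, all near 0, changed sign with another scaling. With 3 libraries a group, no vehicle group and OLD libraries of different kinds, the part of iBP in a difference cannot be told apart from that of the mouse line. At 0.0145 to 0.0203 CPM per count, depth limits only the lowest genes named, such as Fzd10.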

Other observations

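Several genes outside the lists, chosen after their values were seen, set CON-OLD-iBP apart from every OLD library. Mustn1, a musculoskeletal nuclear protein, had 392, 161 and 429.9 CPM in CON-OLD-iBP, against 22.0, 12.4 and 21.4 CPM in OLD, with 104 CPM in YOUNG 3 (against OLD 2 4.72, edgeR adjusted p = 0.012). Nat8l, which makes N-acetylaspartate, had 44.8, 26.0 and 36.8 CPM in CON-OLD-iBP, against 0.623, 0.814 and 0.731 CPM in OLD, with 21.4 CPM in YOUNG 3 (against OLD 2 5.46, edgeR adjusted p = 0.0135). Crct1, a cysteine-rich protein of stratified epithelium, had 219.6, 86.7 and 200.2 CPM in CON-OLD-iBP, against 1.03, 3.63 and 1.93 CPM in OLD, with 60.3 CPM in YOUNG 3. Sprr1a, a small proline-rich protein of the outer shell of skin cells, had 62.4, 7.65 and 56.7 CPM in CON-OLD-iBP, against 0.116, 0.814 and 0.134 CPM in OLD, with 16.6 CPM in YOUNG 3 and no count in YOUNG 1 or 2 (log2 fold change 6.91, edgeR adjusted p = 0.111, and 0.0221 with YOUNG 3 left out of the fit). Lce3d, a late cornified envelope protein, had 19.9, 1.96 and 21.2 CPM in CON-OLD-iBP and no count in OLD, at least 894-fold higher than a floor of 3 counts over the OLD libraries. Lce3c had 16.8, 0.917 and 10.7 CPM in CON-OLD-iBP and no count in OLD. CON-OLD-iBP 2 was the lowest in each of these, YOUNG 3 held 8.30 CPM of Lce3d and 5.18 CPM of Lce3c, and no other OLD, CKO-OLD or YOUNG library had a count of either. Lce1g had 245, 90.2 and 190.0 CPM in CON-OLD-iBP, against 4.81, 11.7 and 6.10 CPM in OLD, with 110.2 CPM in YOUNG 3. Trp63, the basal keratinocyte factor, had 0.606, 0.220 and 0.669 CPM in CON-OLD-iBP, against 2.72, 0.619 and 2.57 CPM in OLD, below OLD 1 and OLD 3 and near or below OLD 2.

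Thbd, thrombomodulin, had 1806, 962 and 972 CPM in CON-OLD-iBP, against 119, 208 and 121 CPM in OLD, and Dusp10, a phosphatase of stress kinases, had 125, 106 and 98.5 CPM in CON-OLD-iBP, against 12.2, 33.3 and 12.0 CPM in OLD. YOUNG 3 held 1048 CPM of Thbd and 70.9 CPM of Dusp10, against 54.4 and 84.6 CPM of Thbd and 9.15 and 10.1 CPM of Dusp10 in YOUNG 1 and 2.

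Gfpt2, an isoform of the first enzyme of hexosamine synthesis, had 126, 71.4 and 175 CPM in CON-OLD-iBP, against 11.5, 13.2 and 11.8 CPM in OLD (against OLD 2 3.24, edgeR adjusted p = 0.0417). Ugdh, which makes UDP-glucuronate for hyaluronan and other glycosaminoglycans, had 1574, 965 and 1119.7 CPM in CON-OLD-iBP, against 256, 404 and 252 CPM in OLD (against OLD 2 1.59, edgeR adjusted p = 0.024). In YOUNG 3 they stood at 40.5 and 1072 CPM.

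Among genes lower than OLD 2 was Dbp, a factor under circadian control. Dbp had 4.12, 6.29 and 3.14 CPM in CON-OLD-iBP, against 29.5, 24.7 and 32.4 CPM in OLD, with 4.23 CPM in YOUNG 3 (against OLD 2 -2.45, edgeR adjusted p = 0.0116). Nfil3, which competes with Dbp for its sites, had 13.3, 14.4 and 13.7 CPM in CON-OLD-iBP, against 56.7, 28.1 and 56.5 CPM in OLD (against OLD 2 -1.02, edgeR adjusted p = 0.0241). The labels give no time of harvest. Slco4a1, an organic anion transporter, had 8.04, 12.6 and 8.25 CPM in CON-OLD-iBP, against 41.0, 105 and 37.8 CPM in OLD, with OLD 2 the highest library (against OLD 2 -3.44, edgeR adjusted p = 0.00593). Gas1, a growth arrest protein and Hedgehog co-receptor, had 25.7, 80.4 and 49.3 CPM in CON-OLD-iBP, against 464, 212 and 470.1 CPM in OLD (log2 fold change -2.88, edgeR adjusted p = 0.0538).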
